A study of Mus musculus with 5 samples.

Results

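Intermediate methylation is the state in which a stretch of DNA is neither mostly unmethylated nor mostly methylated. It was followed here in 5 mouse libraries as fixed windows of 1 kb (tiles) on the autosomes. A tile was kept where 10 or more CpG cytosines were listed in all 5 libraries and where their mean level lay from 30 to 70% in each library. Of 88006 autosomal tiles with that many shared cytosines, 2245 met the rule, a share of 2.55%, and they held 45087 shared cytosines. The tiles were chosen by these levels, so the levels are given as a description, with no test. Without muscle the rule would have kept 3864 tiles, the largest change from leaving out a library. The shared cytosines are then those of the libraries kept, so which tiles have 10 or more also changes. This was not separated from the part of the levels.

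The libraries were made by reduced representation bisulfite sequencing, a method that reads methylation mainly at CpG-rich sites, from C57BL/6x129S6 mice. Muscle is labelled as the control. The 4 other libraries are teratomas, tumours of mixed differentiated tissues, obtained after injection of embryonic stem cells into tetraploid embryos. They are named by the culture of the stem cells: P5_2iL, P5_2iL_F, P5_a2iL_1 (here P5_a2iL) and P5_LCDM_1 (here P5_LCDM). These names are not spelled out in the labels. With 1 library per group, every difference is between libraries and has no replicate check. Muscle had the fewest listed cytosines, 4017125, and P5_2iL_F the most, 5323090. Only percents are deposited, so how many reads stand behind a value is unknown. Of 15 skeletal muscle genes, 11 had 3 or more shared cytosines within 1 kb of a start, and at 10 of them muscle was the lowest of the 5 libraries, with Mb as the exception.

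A tile can reach an intermediate mean in several ways. In an imprinted control region the copy from a single parent is methylated, so each cytosine is methylated in part of the molecules. At the edge of a CpG island, unmethylated cytosines lie beside methylated ones, and their mean is intermediate although hardly any cytosine is. In a tissue of several cell types, a region can also be methylated in some cells and not in others. The deposited percents do not link cytosines to molecules, so partial methylation of single parental copies and of single cells cannot be told apart here.

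To show what such tiles contain, 6 sequences are given. They are RefSeq promoter windows (GRCm38.p6, the same build as mm10) from 250 bases before to 50 after an annotated start, 5′ to 3′ on the strand of the gene, and capitals mark each CpG with a cytosine listed in all 5 libraries. The first 3 are at imprinted loci; of the Nnat window only the end lies in the intermediate tile. They lie at Snrpn on the minus strand (chr7:60005150-60005449), Nnat on the plus strand (chr2:157559828-157560127) and Commd1 on the minus strand (chr11:22972817-22973116), the last of which holds the imprinted Zrsr1 in an intron.
Snrpn: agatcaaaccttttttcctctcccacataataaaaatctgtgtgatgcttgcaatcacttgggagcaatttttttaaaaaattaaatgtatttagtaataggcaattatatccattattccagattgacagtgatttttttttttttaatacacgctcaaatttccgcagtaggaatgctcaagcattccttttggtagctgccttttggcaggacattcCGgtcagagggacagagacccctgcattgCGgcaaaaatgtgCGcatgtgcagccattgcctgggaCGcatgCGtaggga
Nnat: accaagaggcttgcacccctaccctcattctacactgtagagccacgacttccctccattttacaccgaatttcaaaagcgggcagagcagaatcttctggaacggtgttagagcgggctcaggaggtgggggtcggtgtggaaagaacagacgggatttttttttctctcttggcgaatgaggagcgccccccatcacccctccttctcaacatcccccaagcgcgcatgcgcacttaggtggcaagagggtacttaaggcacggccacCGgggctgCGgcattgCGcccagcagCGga
Commd1: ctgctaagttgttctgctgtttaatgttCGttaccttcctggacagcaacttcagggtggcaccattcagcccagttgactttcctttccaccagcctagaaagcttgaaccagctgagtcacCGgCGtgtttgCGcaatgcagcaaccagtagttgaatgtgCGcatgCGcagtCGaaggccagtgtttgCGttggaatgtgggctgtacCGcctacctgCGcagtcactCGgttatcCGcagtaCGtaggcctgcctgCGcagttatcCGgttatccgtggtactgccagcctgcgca
The next windows come from tiles of partly methylated cytosines outside the imprinted list. The first starts the long non-coding RNA 5430440P10Rik (plus strand, chr14:105427309-105427608). The other starts Smtnl1, a smoothelin-like gene of muscle (minus strand, chr2:84822603-84822902), which was chosen after its values were seen, because its window was well covered.
5430440P10Rik: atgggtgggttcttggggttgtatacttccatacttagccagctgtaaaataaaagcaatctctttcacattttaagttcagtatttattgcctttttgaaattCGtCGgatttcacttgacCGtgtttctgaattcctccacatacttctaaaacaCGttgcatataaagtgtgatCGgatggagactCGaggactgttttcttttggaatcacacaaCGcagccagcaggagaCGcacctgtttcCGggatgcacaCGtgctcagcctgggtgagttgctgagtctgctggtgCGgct
Smtnl1: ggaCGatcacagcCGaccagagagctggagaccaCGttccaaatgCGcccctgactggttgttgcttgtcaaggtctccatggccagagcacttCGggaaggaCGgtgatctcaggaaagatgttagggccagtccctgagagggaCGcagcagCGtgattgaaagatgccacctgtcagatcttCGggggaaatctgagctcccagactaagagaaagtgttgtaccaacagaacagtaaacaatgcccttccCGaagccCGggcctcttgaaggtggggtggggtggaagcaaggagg
The last window crosses a boundary between unmethylated and methylated cytosines at Tmem267, a gene for a transmembrane protein (plus strand, chr13:119488223-119488522).
Tmem267: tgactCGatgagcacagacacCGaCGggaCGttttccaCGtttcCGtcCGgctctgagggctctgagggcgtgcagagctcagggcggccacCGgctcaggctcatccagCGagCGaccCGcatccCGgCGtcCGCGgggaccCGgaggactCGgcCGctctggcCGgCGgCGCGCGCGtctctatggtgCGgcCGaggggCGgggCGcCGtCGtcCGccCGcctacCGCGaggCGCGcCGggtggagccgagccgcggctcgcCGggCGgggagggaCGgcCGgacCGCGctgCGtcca

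These windows differed in their cytosines. In the Snrpn window all 5 shared cytosines had a mean over the libraries from 48.4 to 55.2%. In the Commd1 window 22 of 29 shared cytosines had a mean from 30 to 70%, in the 5430440P10Rik window 19 of 22 and in the Smtnl1 window 16 of 21. In the Tmem267 window only 8 of 78 did, and single cytosines ran from 0 to 100%. A search for TGCCGC on both strands (GCGGCA on the other), the letters that the imprint-keeping zinc finger protein ZFP57 binds when methylated, matched in the Snrpn and Nnat windows. Over all 31396 autosomal promoter windows 11.6% held these letters. Of the 205 windows over any intermediate tile 11.7% did. They were in 4 of the 9 windows that lie over a tile of the imprinted list, and 2 of these 4, Snrpn and Snurf, are the same window. The letters hold a CpG, and these 9 windows had a median of 11 CpGs, against 7 over all windows. A match is a description of letters and not of binding.

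Most of the 2245 tiles were neither uniform nor sharply divided. A cytosine was called intermediate where its mean over the 5 libraries was from 30 to 70%, low below that band and high above it. Of the tiles, 271 (12.1%) were made of intermediate cytosines, meaning 75% or more of them; 452 (20.1%) were mixed, with 25% or fewer intermediate; and 1522 (67.8%) lay between and are called partly mixed. By the same cutoffs, 2328 of all 88006 tiles were made of intermediate cytosines, and 17646 were partly mixed. The other 68032 had 25% or fewer intermediate cytosines, which includes tiles that are low or high throughout. The rule kept 11.6% of the 2328, 8.63% of the 17646 and 0.664% of the 68032. Of all cytosines in the 2245 tiles, 46.8% were intermediate, 25.2% low and 28.0% high. Over all 88006 tiles the same shares were 10.5%, 55.8% and 33.7%. The rule chose the tiles by the means of these same cytosines, so it favours intermediate ones by itself.

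**Figure D1:**
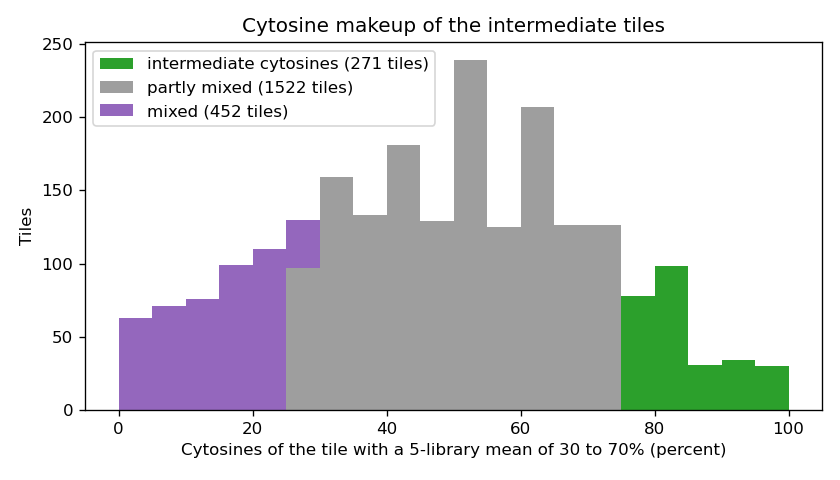
Histogram of the 2245 tiles (count on the vertical axis) by the percent of their cytosines with a 5-library mean from 30 to 70% (horizontal axis), coloured by makeup. The 271 tiles of intermediate cytosines form the right end and the 452 mixed tiles the left end, with 1522 partly mixed tiles between them.

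The mean over libraries hid much spread within single libraries. In the 271 tiles of intermediate cytosines, the median share of cytosines from 20 to 80% was 75% for muscle, 78.6% for P5_2iL, 80% for P5_2iL_F, 81.8% for P5_a2iL and 80% for P5_LCDM. In mixed tiles it ranged from 23.4% (P5_2iL) to 34.9% (P5_a2iL). Asked of all 5 libraries at once, however, only 36.7% of the 5072 cytosines in these 271 tiles stayed from 20 to 80%. With 75% of the cytosines required to do so, 4 tiles remained of the 2245. They lay in Gm35402, in Gm32425, 15522 bp from Hectd2os, and on chromosome 9 (120709001 to 120710000) with no gene within 20 kb. None of these 4 was at a gene of the imprinted list, and they are named because the count is so small.

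The precision of a tile could be gauged only from its strands. Over 2051 of the 2245 tiles with 3 or more CpGs read on both strands, the median absolute difference between the strands was 10.1 points for muscle, 6.49 for P5_2iL, 6.48 for P5_2iL_F, 9.20 for P5_a2iL and 7.81 for P5_LCDM. Over all tiles it ran from 2.66 points (P5_2iL) to 4.46 (muscle). With each strand alone required to lie from 30 to 70% in all 5 libraries, 625 of the tiles remained, of which 56 were made of intermediate cytosines. Many tiles also lay at the edges of the band. There were 360 within 1 point of an edge on the inside and 344 on the outside. Tiles in Nt5c1a (70% in muscle) and F730016J06Rik (70% in P5_a2iL) were among those at the edge on the inside, as was one in Gm21388 (30% in P5_2iL), while a tile in Tnik at 70% in P5_2iL fell outside by less than the rounding of the deposited percents.

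Imprinted genes held many of the tiles with the most intermediate cytosines. Of 67 imprinted genes listed, 66 had a tile with 10 or more shared cytosines in the gene or within 5 kb, and 17 of these had an intermediate tile. Among all 29001 genes with such a tile the share was 7.9%. Tiles made of intermediate cytosines were at 13 of the 66 genes, against 0.986% of the 29001. A gene with more tiles has more chances to hold one, and the number of tiles per gene was not matched. Genes that overlap share tiles, so the 17 genes stand for 20 tiles in 14 separate places. Of these 20 tiles, 13 were made of intermediate cytosines, 6 were partly mixed and 1 was mixed. Among tiles of intermediate cytosines with 50 or more shared cytosines, 8 of 10 were at imprinted genes, and among those with 20 or more, 12 of 73. These 8 lay at Gnas, Grb10, Nnat and Peg13, so several share a gene. Of all 92 intermediate tiles with 50 or more shared cytosines, 11 were at imprinted genes. The same share over all tiles with as many cytosines was not counted.

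On chromosome 2 the list was led by Gnas, which encodes the alpha subunit of the stimulatory G protein and has several promoters with different imprints. It held 6 intermediate tiles, 4 of them made of intermediate cytosines, and its antisense RNA gene Nespas overlaps the first 2 of them. The tile with the most cytosines, 117 (chr2:174285001-174286000), lay at 38.9% in muscle, at 46.7% in P5_2iL, at 30.2% in P5_2iL_F, at 44.1% in P5_a2iL and at 33.6% in P5_LCDM. Farther into the gene a tile of 81 cytosines (chr2:174328001-174329000) lay at 32.1% in muscle, at 49.6% in P5_2iL, at 46.8% in P5_2iL_F, at 40.4% in P5_a2iL and at 64.9% in P5_LCDM. Muscle was the lowest library in the latter and P5_2iL_F in the former, so the order of libraries was not the same within the gene.

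Nnat, which encodes the small membrane protein neuronatin and lies inside Blcap, had 1 tile of 58 cytosines (chr2:157560001-157561000). It lay at 39.4% in muscle, at 60.6% in P5_2iL, at 51.5% in P5_2iL_F, at 51.1% in P5_a2iL and at 67.4% in P5_LCDM. The tile in H13, which encodes a signal peptide peptidase, was the mixed tile of the list. It lay from 56.2% (muscle) to 67.0% (P5_LCDM), but 29.4% of its 17 cytosines were low and 58.8% high, so its mean was made by a step between them.

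On chromosome 7 the tile at Snrpn, a gene for a spliceosome protein in the Prader-Willi region, held 17 cytosines, all of them intermediate (chr7:60005001-60006000). It lay at 30.6% in muscle, at 53.2% in P5_2iL, at 47.1% in P5_2iL_F, at 57.6% in P5_a2iL and at 65.8% in P5_LCDM. Its neighbours in that region, Magel2 and Mkrn3, had partly mixed tiles, from 37.0% (P5_2iL_F) to 53.8% (P5_a2iL) and from 33.6% (muscle) to 43.5% (P5_a2iL). Kcnq1ot1, the non-coding RNA that silences its neighbours on the paternal copy, had a tile of 32 cytosines, 93.8% of them intermediate (chr7:143295001-143296000). It lay at 31.7% in muscle, at 45.7% in P5_2iL, at 41.1% in P5_2iL_F, at 30.5% in P5_a2iL and at 65.2% in P5_LCDM. P5_LCDM stood above the other 4 libraries there. In muscle 0% of these 32 cytosines lay from 20 to 80%, so the muscle mean combined cytosines below 20% with others above 80%, whereas 75 to 78.1% of them lay from 20 to 80% in each teratoma.

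On chromosome 11, Grb10, an adaptor that restrains insulin and growth factor signals, had a pair of adjacent tiles, both made of intermediate cytosines. The larger held 110 (chr11:12026001-12027000) and lay at 39.97% in muscle, at 48.2% in P5_2iL, at 45.9% in P5_2iL_F, at 50.2% in P5_a2iL and at 53.6% in P5_LCDM. The 5 libraries lay within 13.6 points of each other in this tile. Zrsr1, a retrotransposed gene for a splicing factor, also had 2 adjacent tiles. That with 38 cytosines (chr11:22973001-22974000) was made of intermediate cytosines, from 32.8% in muscle to 54.9% in P5_a2iL, and that with 109 was partly mixed, from 39.5% in P5_2iL_F to 49.2% in P5_a2iL.

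Dlk1 and Meg3 on chromosome 12 are oppositely imprinted neighbours, the former a gene for a transmembrane ligand and the latter a non-coding RNA. The Dlk1 tile of 25 cytosines (chr12:109459001-109460000) lay at 67.9% in muscle, at 69.6% in P5_2iL, at 61.4% in P5_2iL_F, at 49.4% in P5_a2iL and at 41.6% in P5_LCDM. The Meg3 tile of 58 cytosines (chr12:109540001-109541000) was partly mixed and lay at 37.3% in muscle, at 59.7% in P5_2iL, at 63.2% in P5_2iL_F, at 66.0% in P5_a2iL and at 58.9% in P5_LCDM. Muscle was thus among the high libraries at Dlk1 and the lowest at Meg3.

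Peg13 on chromosome 15 is a non-coding RNA in an intron of Trappc9. All cytosines of its 2 adjacent tiles were intermediate by their mean. The tile of 57 (chr15:72810001-72811000) lay at 30.03% in muscle, at 50.1% in P5_2iL, at 55.0% in P5_2iL_F, at 59.6% in P5_a2iL and at 64.4% in P5_LCDM. In muscle, however, 18 of these 57 cytosines were at 0%, and in P5_2iL 7 were, while the other 3 libraries had none at 0%. Only 23 of the 57 lay from 20 to 80% in all 5 libraries. In the smaller Grb10 tile (chr11:12025001-12026000) it was 33 of 51, and in the Snrpn tile 10 of 17, with no cytosine at 0% or 100% in any of the 5 libraries. The values of single cytosines were coarse: in muscle the 51 cytosines of the Grb10 tile took 7 different levels and the 17 of the Snrpn tile 4.

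**Figure D2:**
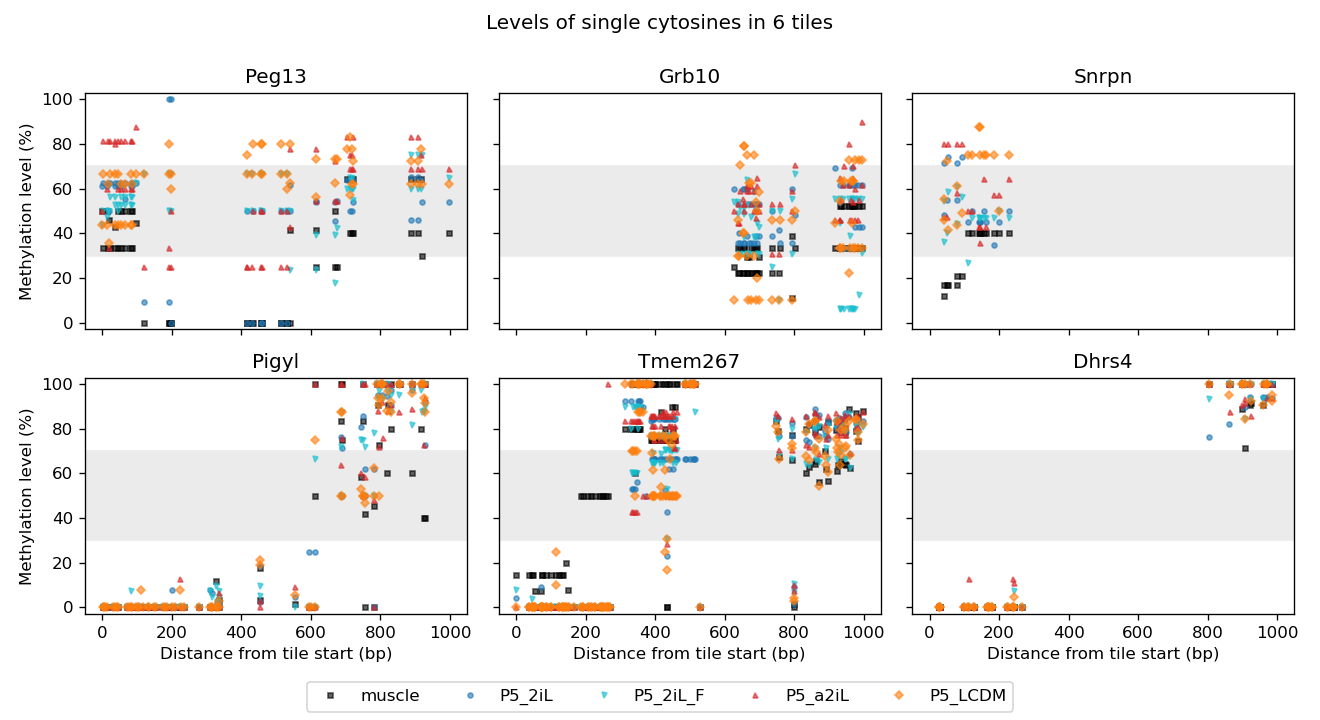
Level of each shared cytosine (vertical axis, percent) against its distance from the tile start (horizontal axis, bp) in 6 tiles, with 1 symbol per library and the band from 30 to 70% shaded. Most cytosines of the Grb10 and Snrpn tiles scatter in and around the band, those of Peg13 reach 0% in muscle and P5_2iL, and those of the Pigyl, Tmem267 and Dhrs4 tiles fall mostly into low and high stretches.

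Muscle tended to be low among the tiles at imprinted genes. It was the lowest library in 14 of the 20 tiles (70%), and the highest in 0. Among all 2245 tiles it was lowest in 36.8%, and among all 88006 tiles in 36.8% too. The 20 tiles lie in 14 places, and Gnas alone holds 6 tiles. Tiles of a place are not independent, and the lowest and highest library were not counted by place. Over the 13 tiles of intermediate cytosines at imprinted genes the median level was 33.5% for muscle, 48.2% for P5_2iL, 47.1% for P5_2iL_F, 49.4% for P5_a2iL and 53.6% for P5_LCDM. P5_LCDM was the highest library in 7 of these 13, and in 16.3% of the 2245 tiles and 14.6% of all tiles. In these tiles 23.8% of the cytosines were at 0% or 100% in muscle, against 7.85% (P5_2iL_F) to 10.3% (P5_a2iL) in the teratomas; the part of sampling depth in this was not tested.

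The strands of these tiles often differed. Each strand alone lay from 30 to 70% in all 5 libraries in 5 of the 20 tiles: at H13, Meg3, the partly mixed Zrsr1 tile and 2 of Gnas. The largest difference between strands in a library was 41.9 points, in the larger Grb10 tile.

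**Figure D3:**
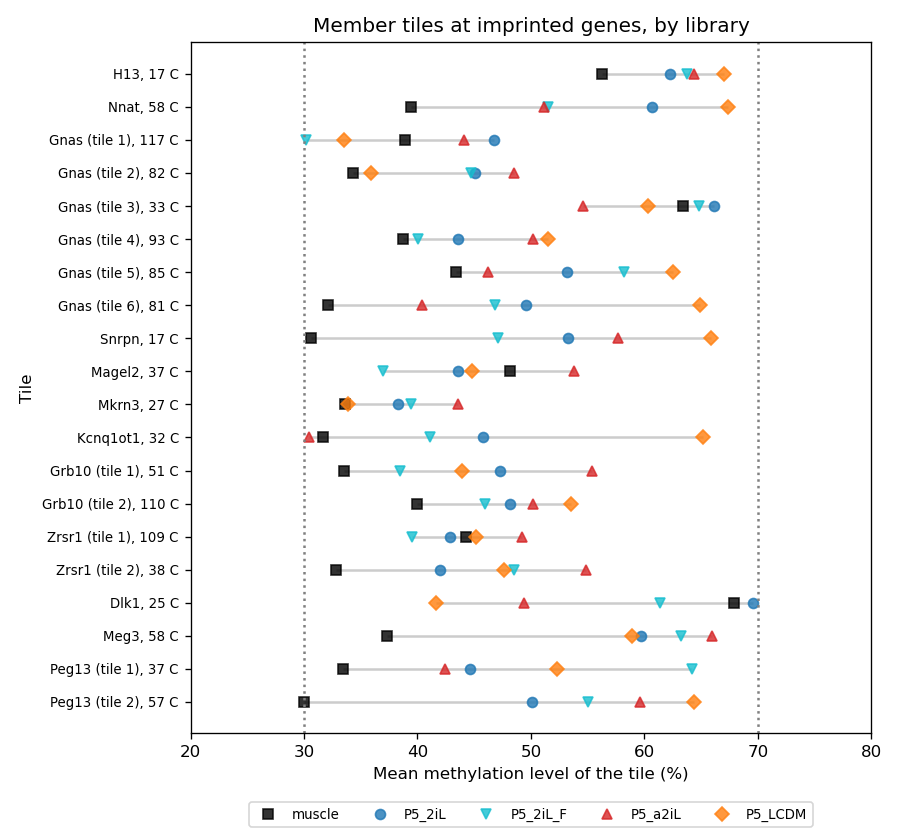
Mean level (horizontal axis, percent) of the 20 intermediate tiles at imprinted genes, 1 row per tile with its number of cytosines (C) and 1 symbol per library. Dotted lines mark 30 and 70%, and muscle (black squares) is the lowest symbol in 14 of the 20 rows.

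Other imprinted genes missed the rule, some of them in a single library. Of the 49 listed genes with tiles but no intermediate tile, 15 had a tile inside the band in 4 libraries. Some of these genes overlap and share a tile. Another 9 of the 49 had no tile inside the band in any library. Of all 88006 tiles 3.31% were inside it in 4 libraries, a share of tiles that is not the same measure as the best tile of a gene. The tile at Impact lay at 21.2% in muscle and from 47.8 to 54.6% in the teratomas. That shared by Igf2r, a receptor for insulin-like growth factor 2, and its antisense RNA Airn lay at 25.2% in muscle and from 39.3% (P5_a2iL) to 47.6% (P5_2iL_F) in the teratomas. At Mest, which encodes a hydrolase-like enzyme, P5_a2iL left the band, at 74.6% against 40.8 to 56.6% in the other libraries, and at Zdbf2 it lay at 91.4% against 53.6 to 62.8%. Peg10, which shares its tile with Sgce, was outside in 2 libraries, at 15.0% in muscle and 83.8% in P5_a2iL. Nap1l5 left the band in P5_2iL_F alone, at 72.7%. Igf2 and Inpp5f left it in P5_2iL alone, at 87.4% and 88.0%.

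Outside the imprinted list, 258 tiles were made of intermediate cytosines, with a median of 13 shared cytosines against 57 for the 13 at imprinted genes. The largest held 122 and lay in Crb2, which encodes a protein of the epithelial polarity complex (chr2:37793001-37794000). It lay at 58.1% in muscle, at 54.8% in P5_2iL, at 44.5% in P5_2iL_F, at 53.5% in P5_a2iL and at 34.4% in P5_LCDM. At 5430440P10Rik, 2 adjacent tiles of 25 and 42 cytosines were made of intermediate cytosines. The larger lay at 35.5% in muscle, at 47.6% in P5_2iL, at 47.2% in P5_2iL_F, at 59.2% in P5_a2iL and at 59.4% in P5_LCDM. Muscle was the lowest library in this tile, as it was in 36.8% of the 258 tiles.

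The other tiles of this group lay in genes of varied roles. Cacna1h, a T-type calcium channel gene, lay from 41.2% (P5_LCDM) to 62.6% (P5_2iL) over 52 cytosines. The lens crystallin gene Crybb1 lay from 44.1% (muscle) to 65.3% (P5_2iL_F), and Rad21l, a meiotic cohesin gene, from 38.9% (muscle) to 56.9% (P5_2iL). These 3 genes are not on the imprinted list. Ckm, the muscle creatine kinase gene, lay at 51.5% in muscle, inside the range of the teratomas of 48.8% (P5_a2iL) to 60.3% (P5_2iL). Rps6kl1 ranged from 32.0% (P5_LCDM) to 66.5% (P5_2iL), and Igsf21, which encodes an adhesion protein of the immunoglobulin superfamily, from 31.0% (muscle) to 61.6% (P5_2iL). Of the 16 tiles in these 15 places, those with the smallest and largest spread were those of Ttc22, where the 5 libraries lay from 47.6 to 50.4% over 31 cytosines, and the smaller one of 5430440P10Rik, at 32.4% in muscle and 67.9% in P5_a2iL. The remaining tiles lay in the non-coding genes LOC115490388, Gm32897, Gm46437 and Wt1os, in the tektin gene Tekt4, and 16974 bp from Mefv, with levels from 30.1% (P5_LCDM near Mefv) to 65.4%, reached in P5_a2iL by both Gm32897 and Gm46437.

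**Figure D4:**
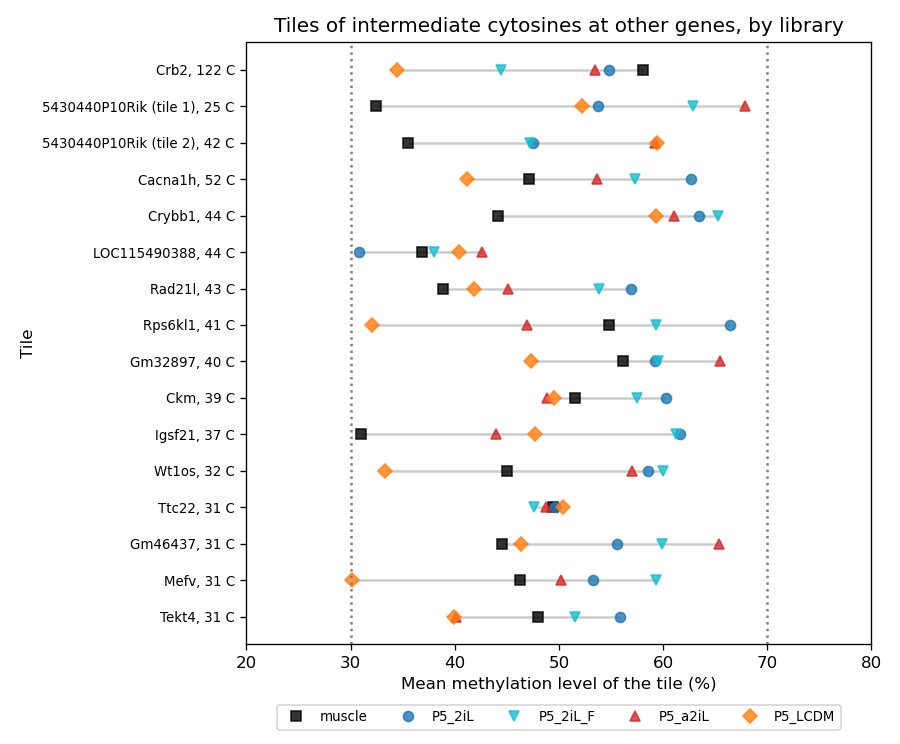
Mean level (horizontal axis, percent) of the 16 tiles in the 15 places outside the imprinted list with the most intermediate cytosines, 1 row per tile and 1 symbol per library; C is the number of cytosines and dotted lines mark 30 and 70%. The libraries lie close together at Ttc22, and P5_LCDM is the lowest at Crb2, Rps6kl1 and Wt1os, among others.

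Some tiles were divided by a step. In 500 of the 2245 tiles (22.3%) a single split separated low from high cytosines by 50 points or more. It also took up 75% or more of the spread between cytosines. Of these steps 319 were in mixed tiles, which is 70.6% of the mixed tiles, and 181 were in partly mixed tiles. The values that follow are over all 500. Of all 88006 tiles 2.52% had such a step; a step brings a tile's mean toward the middle, so the rule itself favours them. The median level was 15.4% on the low side and 81.8% on the high side. In 266 of the 500 the sides were 50 points or more apart in each of the 5 libraries. The tile next to the low side, whether or not it was itself an intermediate tile, had a median level of 7.57% and was below 30% in 191 of 274 cases, while that next to the high side had a median of 84.4% and was above 70% in 142 of 172. The low side had more shared cytosines per length in 296 of the 500. A start of a gene lay within 1 kb of 24.4% of the steps, against 15.5% of the tiles of intermediate cytosines and 22.8% of all tiles.

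The step with the most cytosines was in Tmem267 (chr13:119488001-119489000), whose boundary is inside the Tmem267 window printed earlier, between 119488272 and 119488315. Its 52 cytosines on the low side lay at 13.7% in muscle, at 0.252% in P5_2iL, at 0.222% in P5_2iL_F, at 1.92% in P5_a2iL and at 0.673% in P5_LCDM. The 106 on the high side lay from 71.8% (P5_LCDM) to 79.2% (P5_a2iL). At Pigyl, a gene of glycosylphosphatidylinositol anchor synthesis, 43 cytosines had a mean of 2.17% and the 34 beside them 82.0%, with the sides apart in all 5 libraries. Beside Foxc1, a forkhead transcription factor gene, the low side was at 47.8% in P5_LCDM against 12.97 to 20.6% in the other libraries. Tmem200b and 2200002D01Rik had steps of 57.9 and 66.5 points. At Cul7, which encodes a scaffold of a ubiquitin ligase, the high side lay at 41.2% in muscle and 41.7% in P5_LCDM, but at 85.6 to 87.4% in the other 3 libraries, so the step was not the same in every library.

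The range over the 5 libraries and the makeup both come from the levels that chose the tiles, and a cytosine that differs between libraries tends to have an intermediate mean, so the ranges are given as a description. The median range over the 5 libraries was 24.96 points in tiles of intermediate cytosines, 20.4 in partly mixed and 13.2 in mixed tiles; it was 13.97 points over all 88006 tiles, and the rule caps it at 40 points. Among tiles with 20 or more cytosines, the 5 with the smallest range were all mixed, led by Dhrs4, a dehydrogenase gene, where the libraries lay from 37.3 to 38.8%. The others were the Pigyl tile, tiles 65 bp from Smim26 and 2471 bp from Cldn13, and one on chromosome 12 (118458001 to 118459000). None of the 5 with the largest range was mixed. Kcns1, a potassium channel subunit gene, lay at 30.9% in muscle and 69.8% in P5_2iL_F. Usp6nl lay at 69.4% in muscle and 30.9% in P5_2iL, the opposite direction. Camta1, a gene for a calmodulin-binding factor, was at 31.4% in muscle and 69.7% in P5_2iL, while Tbc1d1 and Mpp2 were highest in P5_LCDM, both at 68.5%.

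Each teratoma was above muscle in more of the tiles than not, from 1223 of 2245 in P5_LCDM to 1508 in P5_2iL. The median difference from muscle was 6.14 points for P5_2iL, 5.29 for P5_2iL_F, 3.10 for P5_a2iL and 1.10 for P5_LCDM. Over all tiles it had the same direction and order, at 3.57, 3.03, 1.26 and 0.279 points. A difference of 25 points or more was found in 218 tiles (9.71%) for P5_2iL, against 16.1% of all tiles. For P5_2iL_F it was found in 197 (8.78%), against 14.7%. It was found in 134 (5.97%) for P5_a2iL, against 9.52%, and in 148 (6.59%) for P5_LCDM, against 10.4%. Against P5_2iL, 6 tiles (0.267%) differed that much in P5_2iL_F, where the share of all tiles was 0.37%. In P5_a2iL 77 did (3.43%, all tiles 5.93%) and in P5_LCDM 172 (7.66%, all tiles 11.6%). The rule limits these counts, so nothing is read from them.

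Measures that the rule did not use were also intermediate more often than elsewhere. Some cytosines in the same tiles were listed in only part of the libraries. Where 3 or more were, their mean was from 30 to 70% in 42.1% of 699 tiles for muscle, 40.4% of 859 for P5_2iL, 39.9% of 1063 for P5_2iL_F, 39.6% of 705 for P5_a2iL and 46.1% of 882 for P5_LCDM. Over all tiles the same share ran from 10.6% (P5_2iL) to 18.8% (P5_LCDM). The share did not follow makeup closely. In muscle it was 27.6% of 76 tiles of intermediate cytosines and 40.6% of 165 mixed tiles. In the teratomas it was 40% (P5_2iL_F) to 42.6% (P5_a2iL) in the former and 34.1% (P5_a2iL) to 44.8% (P5_LCDM) in the latter. Cytosines listed in only part of the libraries come from the same libraries and neighbouring fragments, so they are no replicate of the tile.

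The surroundings of the tiles depended on makeup. Of the nearest neighbours that were not intermediate tiles themselves and had 3 or more shared cytosines, 39.5% of 152 beside tiles of intermediate cytosines had a mean over the libraries from 30 to 70%. Beside partly mixed tiles it was 29% of 1124, and beside mixed tiles 12.8% of 366. Among all 208207 tiles with 3 or more shared cytosines it was 18.5%. At a distance of 2 tiles the shares were 25%, 22.4% and 22.2%. Only 5 places had 2 or more tiles of intermediate cytosines within 2 kb of each other, and 2109 of 2176 separate places held a single intermediate tile.

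**Figure D5:**
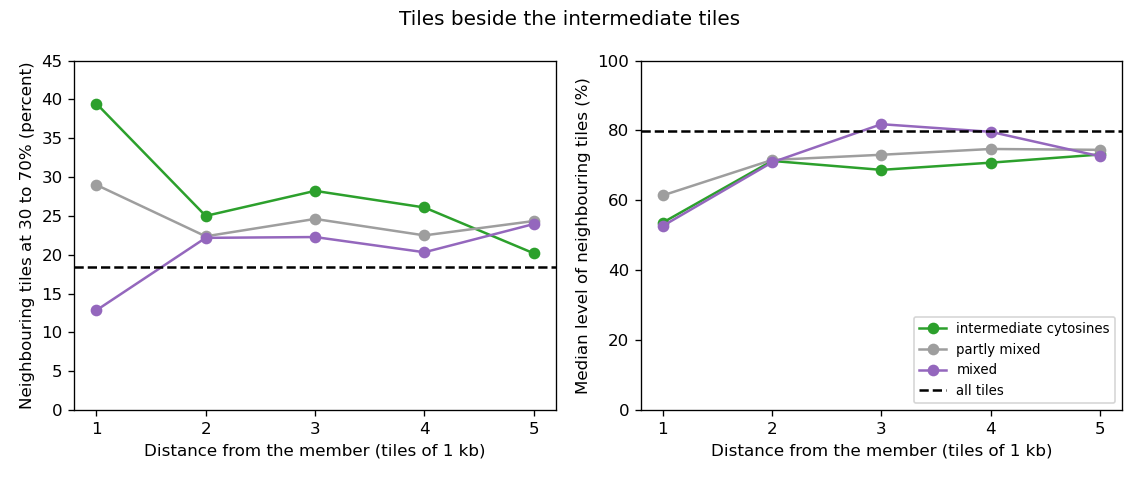
Tiles beside the intermediate tiles, by distance in tiles (horizontal axis) and makeup (colours); the left panel gives the percent of neighbours from 30 to 70% and the right panel their median level in percent. Nearest neighbours of tiles of intermediate cytosines are intermediate in 39.5% of cases and those of mixed tiles in 12.8%; the dashed lines are the values over all tiles, 18.5% and 79.7%.

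The tiles were slightly less often in genes than other tiles. Of the 2245, 56.0% overlapped a protein coding gene, against 64.0% of all 88006, and 31.8% lay outside any annotated gene, against 27.5%. The gene table gives the start and end of genes and not their exons. Of tiles with 10 to 19 shared cytosines 2.89% were intermediate, with 20 to 29 3.03% and with 60 or more 0.592%. Tiles with the most shared cytosines were thus the least often intermediate. The CpG content of their sequence was not measured. By chromosome the share ran from 1.79% (chromosome 1) to 3.18% (chromosome 4).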

How the data were processed

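The 5 libraries, 1 per group, come from reduced representation bisulfite sequencing. In the deposited files each CpG cytosine has a methylation level in percent, listed separately for each strand, without read counts. The submitters' processing notes name Trim Galore 0.6.4, Bismark and build mm10, without saying what each did; the coverage minimum is not given in the sources used here. Listed positions were checked against RefSeq promoter sequences: the number in column 2, counted from 1, fell in a CpG at 481827 of 481827 positions, and it was used as the position. Cytosines listed in all 5 libraries (3079380 on the autosomes) were averaged with equal weight per 1 kb tile. Cytosines of a fragment share reads and are not independent. Groups came from the labels; with 1 library per group no test was made. Genes came from a RefSeq table of GRCm38.p6, in which all 67 imprinted genes matched.

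Named tiles were those at imprinted list genes, the 15 places outside the list with the most cytosines in tiles of intermediate cytosines, the 6 steps with the most cytosines, the 5 largest and 5 smallest ranges with 20 or more cytosines, and at most 4 genes per further list. The tiles, lists and rules were chosen with earlier results of these data known. The functions were tested on simulated data. Values were computed in pandas 2.3.3 with NumPy 2.4.6 under Python 3.11.15, and plots were drawn with matplotlib 3.10.9.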

Additional observations from a re-analysis of the deposited data

How the results depend on the processing

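The number of intermediate tiles (2245), of those made of intermediate cytosines (271) and of imprinted genes with an intermediate tile (17) depended on the band and the cytosine minimum. From 25 to 75% they were 4391, 515 and 28, and from 40 to 60% 240, 13 and 0. With 5 or more shared cytosines 4593 tiles and 691 of intermediate cytosines were found, and with 20 or more 757 and 73, while the imprinted genes were 21 and 15. Tiles of intermediate cytosines were 98 with each library's own cytosines, 501 with both strands of a CpG averaged first and the minimum set at 5 or more CpGs, 1045 with a cytosine band of 20 to 80%, 730 and 64 with 60% or 90% of cytosines required, and 162 with cytosines from 20 to 80% in at least 4 libraries. In settings chosen after seeing the data they were 4 with all 5 libraries required, and with each strand alone in the band the counts were 625, 56 and 6; the cause was not tested. Leaving out each library in turn gave 2535 to 3864 tiles, 269 to 402 of intermediate cytosines and 19 to 22 imprinted genes; the highest of each, 3864, 402 and 22, came without muscle. Shifting the tiles by 500 bp gave 2309, 279 and 16. No paired analysis was possible because each group holds 1 library. A coverage minimum could not be tried, since the files give no read counts.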

Other observations

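Clustered protocadherin genes, which encode neuronal adhesion proteins, held many intermediate tiles. The 61 protocadherin genes with a tile in the gene or within 5 kb include genes outside the clusters. Of the 61, 33 had an intermediate tile, against 9.28% of protein coding genes. The genes of a cluster overlap, so these 33 share 16 tiles. In the alpha cluster 7 of 23 tiles were intermediate, in the beta cluster 1 of 16 and in the gamma cluster 8 of 47, and 14 of the 16 were partly mixed. The alpha tiles had median levels of 41.2% for muscle, 41.0% for P5_2iL, 44.2% for P5_2iL_F, 46.2% for P5_a2iL and 50.2% for P5_LCDM. The gamma tiles had medians of 40.6% for muscle, 51.6% for P5_2iL, 52.1% for P5_2iL_F, 58.7% for P5_a2iL and 61.9% for P5_LCDM. Pcdhga1 overlapped or neighboured all 8 gamma tiles and Pcdha1 all 7 alpha tiles.

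The share of genes with an intermediate tile differed among the other groups, against 7.9% of all genes. Zinc finger genes named Zfp had them at 17 of 349 (4.87%), led by Zfp469 with 5 tiles, then Zfp423 with 3, and Zfp653 with 2; of those with 1, the tile of Zfp628 had the most cytosines, 39. Olfactory receptor genes had 1 of 136 (Olfr744), vomeronasal receptor genes 3 of 81 (Vmn2r-ps76, Vmn2r-ps77 and Vmn1r56) and Hox cluster genes 0 of 39. Of 24 germline genes 2 had a partly mixed tile, Tdrd1 from 53.6% (muscle) to 69.5% (P5_a2iL) and the meiotic cohesin gene Smc1b from 45.1% (muscle) to 56.4% (P5_LCDM). Of 7 genes listed for their link to variable retroviral elements, 1 had such a tile (14.3%). It lay in the agouti gene, with 15 cytosines from 50.1% (P5_2iL) to 57.5% (muscle). Whether that tile, or these mice, hold a retroviral element there was not examined. Of 14 muscle genes 4 had an intermediate tile (28.6%): Ckm, Acta1, Des and Tnni2.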
